A study of Mus musculus with 44 samples.

Results

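Chromatin accessibility was compared between *Pou5f1*-KO and Ctrl mouse embryos at the morula stage (E2.75), before the inner cell mass (ICM) forms. *Pou5f1* encodes the transcription factor Oct4. The comparison took the 6 morula libraries, 3 *Pou5f1*-KO and 3 Ctrl, of the 44 ATAC-seq libraries in the series, and all 152393 peaks of the deposited table. The other libraries come from *Pou5f1*-KO and Ctrl late morulae (E3.25), and from ICMs of E3.75 (early) or E4.5 (late) embryos of both a *Pou5f1*-KO and a *Sox2*-KO with their own controls. The embryos are labelled B6C3F1, and the mutant lines go back to targeted ES cells. KO embryos carried a maternal *Pou5f1* flox allele deleted by *Zp3*-Cre, which is active in the growing oocyte, and the paternal mKO2 allele (*Pou5f1* mKO2/Δ), so that they lacked both maternal and zygotic Oct4. Ctrl embryos carried the same deleted maternal allele and an intact paternal one (*Pou5f1* +/Δ), so they too lacked maternal Oct4 and are not wildtype. KO embryos were picked by the orange fluorescence of mKO2, which the mouse PGK promoter drives. Each library was a pool of 20 to 40 whole morulae, with no inhibitor, whereas the ICMs had been cultured in 1 μM of the MEK inhibitor PD0325901 and isolated by immunosurgery. In such pools fewer cells with an open site and a weaker opening in every cell cannot be told apart.

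Oct4 is a POU-domain factor that binds an octamer, and in pluripotent cells it often binds next to Sox2 on a joint OCT-SOX element. At the morula stage the cells compact and polarise, and outer cells start on the way to trophectoderm while inner cells found the ICM. ATAC-seq reads where the transposase Tn5 can insert, so a high value marks open chromatin, such as an active enhancer or promoter.

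Values are rlog accessibilities, a log2 scale of insertions per 200 bp peak that was moderated and normalised over all libraries, so a KO minus Ctrl difference is in log2 units. The count of insertions behind a value was not used here and depth is unknown. Median rlog was between 2.38 and 2.61 in the 6 libraries. Pearson correlations over the peaks of pairs of libraries were 0.812 to 0.847 within Ctrl, 0.824 to 0.851 within KO and 0.783 to 0.855 between the groups, so over the whole table the groups did not separate. The peak nearest the start site of each of 7 genes of the morula, *Pou5f1*, *Nanog*, *Tfap2c*, *Cdx2*, *Klf5*, *Tead4* and *Cdh1*, had a Ctrl mean between 3.78 and 6.0 and a KO mean between 3.67 and 6.22, beside a median of 2.47 over all peaks in Ctrl. Of 12 markers of somatic cells of the ovary and oviduct only 5 had a peak within 1 kb of the start site. *Foxl2*, *Fshr*, *Lhcgr*, *Cyp19a1*, *Pax8*, *Ptprc* and *Pdgfrb* had none. The 5 had Ctrl means of 1.40 to 5.83 and KO means of 1.40 to 5.88, and none was called between the groups.

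The targeted locus itself did not tell the groups apart. The peak in a coding exon of *Pou5f1* (chr17:35509358-35509557) had an rlog of 2.62, 2.07 and 2.53 in Ctrl and of 3.08, 3.30 and 2.22 in KO. The study describes the KO allele both as a cassette in the first intron and as a removal of the exons for the DNA-binding domain, so this peak is no sure check of the labels. At the promoter of *Pgk1*, a copy of which drives the reporter of the KO allele, the rlog was 5.13, 4.56 and 5.03 in Ctrl and 5.48, 5.23 and 6.38 in KO. Every KO library lay above every Ctrl library there, although the difference of 0.79 was not called (limma, adjusted p = 0.30). In late morula the difference was 0.48 (adjusted p = 0.70). In early and late ICM the same peak was higher in KO by 1.01 (adjusted p = 0.0025) and 0.84 (adjusted p = 0.0088).

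One library stood between the groups. Over the 1809 peaks that hold an OCT-SOX word (defined below), the mean rlog was 2.08, 2.03 and 2.05 in Ctrl replicates 1 to 3, and 1.94, 1.51 and 1.30 in KO replicates 1 to 3. KO replicate 1 thus lay nearest to Ctrl, though below all 3 Ctrl libraries, while its *Pgk1* promoter value was above all 3. The counts of calls, the number of the largest changes still called, the share and mean for the OCT-SOX word and the share negative in late morula are also given without it, and all other values include it.

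The sequences that the results turn on are shown first. They were read from the GRCm38.p6 (mm10) reference of RefSeq on the strand on which the word reads forward, with up to 30 bases on either side. Capitals mark the word. The octamer searched was ATGCAAAT, with no mismatch. The OCT-SOX word was a SOX part, CNTTGTN, followed directly by that octamer, with at most 2 mismatches over the letters that are not N, so the octamer can lie inside it. Both strands of each 200 bp window were searched. A match is a description of the sequence and not a measured binding site. The first 5 sequences belong to called decreased peaks, the third with 3 mismatches to the OCT-SOX word, and the last is the conserved CR4 enhancer of *Pou5f1*, which was not called:
Cfap69 intron, chr5:5624593-5624665, plus strand: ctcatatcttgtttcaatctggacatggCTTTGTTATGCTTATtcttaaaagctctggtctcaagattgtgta
Ostf1 intron, chr19:18608177-18608231, minus strand: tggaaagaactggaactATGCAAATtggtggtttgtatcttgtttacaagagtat
Asph upstream, chr4:9737210-9737284, plus strand: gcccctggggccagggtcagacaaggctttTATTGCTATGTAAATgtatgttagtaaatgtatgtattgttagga
Esrrb intron, chr12:86471016-86471083, minus strand: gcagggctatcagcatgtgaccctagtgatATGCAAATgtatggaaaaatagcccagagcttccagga
Tet2 exon, chr3:133513638-133513705, plus strand: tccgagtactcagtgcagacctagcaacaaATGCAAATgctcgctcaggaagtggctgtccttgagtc
Pou5f1 CR4, chr17:35504019-35504093, minus strand: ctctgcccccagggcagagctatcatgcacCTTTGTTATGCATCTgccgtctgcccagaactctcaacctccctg

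Most changed sites were less open without zygotic Oct4. In *Pou5f1*-KO morula 282 peaks (0.185% of the 152393 tested) were decreased and 79 (0.0518%) increased at an adjusted p under 0.05 (limma, Benjamini-Hochberg over all peaks), so 78.1% of the changed peaks were decreased. Decreased peaks were open sites in Ctrl, with a median rlog of 4.32 in Ctrl and 2.29 in KO, and 271 of the 282 lay above the median Ctrl rlog of all peaks. Increased peaks were weak sites, with a median of 0.28 in Ctrl and 2.28 in KO, and 71 of the 79 lay below that median. The calls favour such Ctrl levels, since a large fall needs a high Ctrl value and a large rise a low one. In KO the median over all peaks was 2.45. The median difference was −1.99 for the decreased and 1.96 for the increased peaks, and −0.017 over all peaks. Every KO library was below every Ctrl library in 239 of the decreased peaks, beside 5.95% of all peaks, and above in 74 of the increased peaks, beside 5.29% of all peaks. The calls come from these same libraries, so this lack of overlap follows largely from the choice of peaks.

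**Figure D1:**
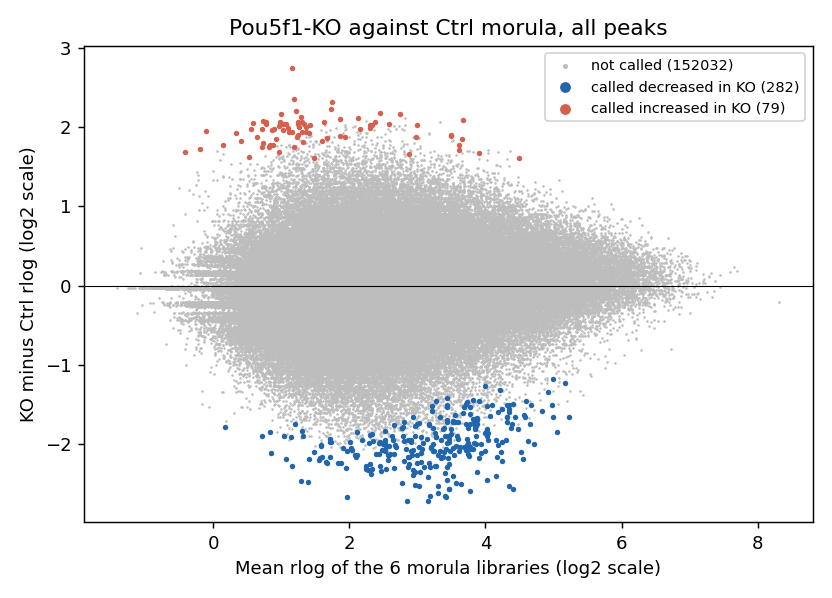
Each point is a peak: the mean rlog of the 6 morula libraries (x, log2 scale) against the KO minus Ctrl difference (y, log2 scale), with the 282 decreased peaks in blue and the 79 increased in red. Decreased peaks sit at middle to high accessibility, increased peaks at low accessibility, which the calls favour.

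The number of calls depended on the scaling, the model and single libraries. Quantile normalization gave 497 decreased and 200 increased peaks, and a fit without the variance trend 124 and 28. A fit with a block for the replicate number gave 771 decreased peaks. Leaving out KO replicate 1 gave 962 decreased and 129 increased peaks, and 266 of the 282 were among the 962. Leaving out KO replicate 2 gave 52 and 36, and leaving out KO replicate 3 gave 12 and 7. Without Ctrl replicate 1, 2 or 3 there were 147, 129 and 145 decreased and 36, 28 and 120 increased peaks. KO replicate 1 was the highest of the 3 KO libraries in 232 of the 282 decreased peaks (82.3%), beside 34.7% of all peaks and 54.0% of those with the OCT-SOX word. Median rlog over the decreased peaks was 4.29, 4.32 and 4.32 in Ctrl, and 3.28, 1.84 and 1.49 in KO replicates 1, 2 and 3, so the spread of these peaks among the KO libraries was wide and among Ctrl libraries small. Over the increased peaks the KO libraries were alike, at 2.50, 2.29 and 2.30. A fit to the 6 morula libraries alone, with little to estimate the spread from, called 22 decreased and 15 increased peaks. That fit takes the spread from the morula libraries only. The main fit shares it with the later groups, whose KO libraries spread less over the decreased peaks (given below). Which of these lowers the count was not tested.

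The 12 largest decreases with no overlap of the groups were between −2.71 and −2.53 (SE 0.38 to 0.54, adjusted p from 3.8e-05 to 0.0092). SEs and p-values here rest on the spread within all groups of the series, not within the morula groups alone. None of the 12 had a gene of the pluripotency list (below) as its nearest gene. The largest was in an intron of *Cfap69*, a gene of the sperm flagellum, at chr5:5624593-5624792, with an rlog of 4.16, 4.67 and 3.78 in Ctrl and 3.28, 0.86 and 0.34 in KO. KO replicate 1 was close to Ctrl there and the other two were far lower. A peak between genes, 9594 bp downstream of the start of *Sh2d6* (chr6:72510322-72510521) had 4.53, 4.54 and 4.48 in Ctrl and 2.79, 1.41 and 1.22 in KO. There the Ctrl libraries were almost equal and all 3 KO libraries were clearly lower.

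Among these 12 the smallest p was in an intron of *Ostf1*, an SH3-domain adaptor first described in osteoclast formation (chr19:18608032-18608231). Its rlog was 5.85, 5.65 and 5.56 in Ctrl and 4.85, 2.26 and 2.25 in KO, a difference of −2.57 ± 0.38 (SE, adjusted p = 3.8e-05), and it holds the octamer. A peak upstream of *Asph*, which encodes an aspartyl hydroxylase (chr4:9737150-9737349), had 5.18, 4.31 and 4.32 in Ctrl and 3.03, 1.85 and 1.09 in KO. A peak upstream of *Epb41l4b*, a FERM-domain gene of the cell cortex, had 4.94, 4.92 and 5.34 in Ctrl and 4.17, 2.03 and 1.24 in KO. In all 3 KO replicate 1 again lay nearest to Ctrl. Over all decreased peaks the smallest p was at a peak nearest to *Spag9*, a scaffold of JNK signalling (chr11:93986020-93986219), which was picked for that p after the values were seen. It holds an OCT-SOX or OCT word and had 5.90, 5.66 and 5.25 in Ctrl and 3.71, 2.30 and 3.22 in KO (difference −2.53, adjusted p = 1.8e-07), without overlap.

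The other peaks among the 12 lay nearest to *4930548H24Rik*, *Socs6* (a suppressor of cytokine signalling), *Dtd1* (which clears D-amino acids from tRNA), *Foxi3* (a forkhead factor), *Osbpl6* (an oxysterol-binding protein), *Fhl2* (a LIM-domain cofactor) and *Gadd45a* (a stress-response gene). The last was in an intron of *Gng12*, which encodes a G protein subunit. At *Osbpl6* KO replicate 1 had 4.48, just below the Ctrl libraries at 4.6, 4.92 and 4.76, while KO replicates 2 and 3 had 1.37 and 0.71. KO replicate 1 was the highest KO library at all 12 peaks. Of the 20 peaks that make up these 12 and the 8 largest increases (below), 19 were still called without KO replicate 1, and 5 without KO replicate 3.

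**Figure D2:**
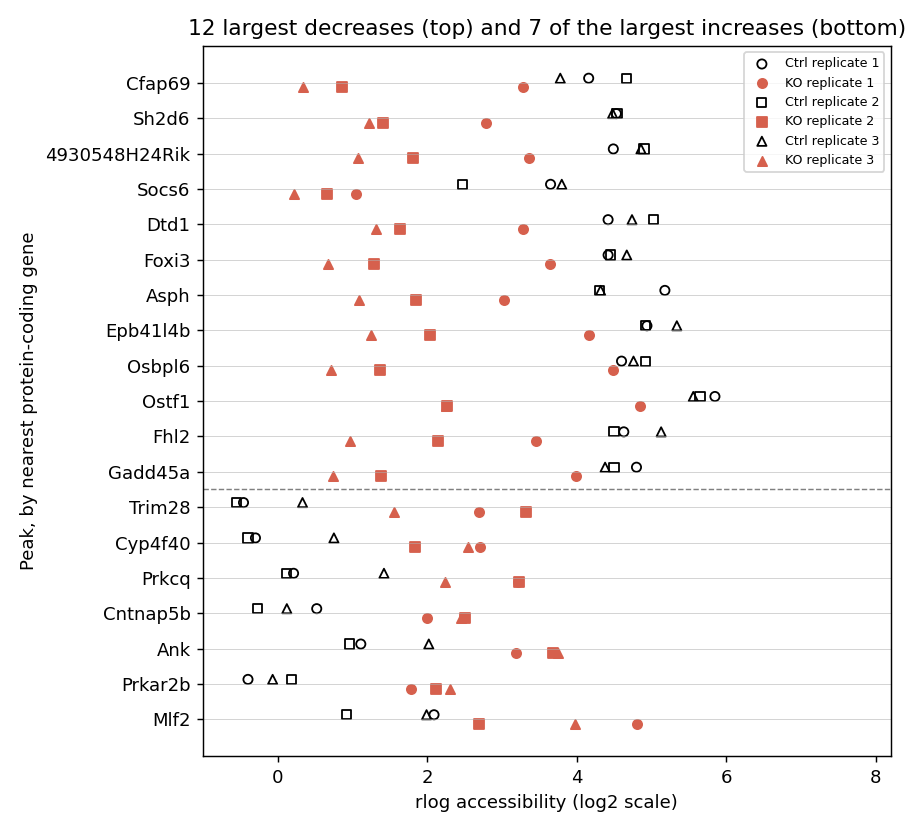
rlog accessibility (x, log2 scale) of every morula library at the 12 largest decreases (above the dashed line) and 7 of the 8 largest increases (below it), named by the nearest protein-coding gene. Open symbols are Ctrl and filled symbols KO; among the decreases KO replicate 1 (filled circle) is always the KO library nearest to Ctrl.

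The 8 largest increases, picked like the decreases among peaks without overlap of the groups, were between 2.16 and 2.8 (adjusted p from 0.00019 to 0.037). The largest was in an intron of *Trim28* (chr7:13002459-13002658), which encodes a corepressor that silences transposable elements. Its rlog was −0.46, −0.55 and 0.33 in Ctrl and 2.69, 3.32 and 1.55 in KO. The peak was close to absent in Ctrl and weak in KO. A peak at the start of *Cyp4f40*, a cytochrome P450 gene (chr17:32667458-32667657), had −0.30, −0.40 and 0.75 in Ctrl and 2.70, 1.84 and 2.55 in KO. Another 5 lay nearest to *Prkcq* (a protein kinase C), *Cntnap5b* (a neuronal adhesion protein), *Ank* (pyrophosphate transport), *Prkar2b* (a regulatory subunit of protein kinase A) and *Mlf2*. KO replicate 1 was the highest KO library at 3 of these 8 peaks, and no Ctrl library at any of the 8 exceeded 2.09.

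The changed peaks were spread over the genome and lay away from promoters. The 282 decreased peaks formed 275 loci when peaks within 50 kb were joined. At 7 loci 2 peaks fell together, near *Pgap1*, *Epb41l5*, *Trp53bp2*, *Ppp1r12a*, *Usp7*, *Arid1b* and *Lrp2*, and at none more than 2. The 79 increased peaks formed 79 loci. Of the decreased peaks 50.0% lay in introns and 46.1% between genes, beside 47.3% and 43.1% of all peaks. Within 100 bp of a start site lay 3 decreased peaks (1.06%) and 1 increased peak (1.27%), beside 7.77% of all peaks.

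The 3 decreased start site peaks were at *Pnpla6*, *Liph* and *Rbpj*. *Rbpj*, the DNA-binding mediator of Notch signalling, had 5.22, 5.72 and 5.91 in Ctrl and 4.94, 3.90 and 3.26 in KO at chr5:53555609-53555808 (difference −1.58 ± 0.33, SE, adjusted p = 0.011). *Liph*, a phospholipase gene, had 3.95, 3.34 and 4.32 in Ctrl and 2.76, 2.58 and 1.02 in KO (adjusted p = 0.037). *Pnpla6*, which encodes another phospholipase, had 4.5, 4.11 and 3.57 in Ctrl and 2.81, 1.42 and 1.54 in KO (adjusted p = 0.029). The groups did not overlap at any of the 3. The windows of *Liph* and *Pnpla6* hold the octamer.

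OCT words were more frequent in decreased peaks than over the table. The OCT-SOX word was in 36 of the 282 decreased peaks (12.8%), in 0 of the 79 increased peaks and in 1.19% of all peaks. The octamer was in 43 decreased peaks (15.2%), 1 increased peak and 2.39% of all peaks. One or the other was in 69 decreased peaks (24.5%), beside 3.26% of all peaks, so 213 decreased peaks held neither. Allowing 3 mismatches raised the share with the OCT-SOX word to 40.8%, beside 6.80% of all peaks, and allowing 1 lowered it to 2.84%, beside 0.171%. With single libraries left out the share ran from 5.77% (without KO replicate 2) to 15.6% (without Ctrl replicate 1). It was 10.4% of the 962 peaks without KO replicate 1. Omission of KO replicate 3 gave 8.33%, and omission of Ctrl replicate 3 gave 8.28%. Decreased windows had a lower GC content, with a median of 44.5% against 50.0% over all peaks. Among windows with a GC content of 40% to 50% the word was in 14.3% of decreased and 1.60% of all peaks.

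Words of other factors were searched in the same windows. The GATA word AGATAA was in 34.4% of decreased peaks and 17.5% of all peaks, and the TEAD word GGAATG, read by the effectors of Hippo signalling, in 25.9% and 18.9%. The KLF word GGGNGNGG was less common in decreased peaks (28.4%) than over all peaks (39.1%), as was the CTCF word, with at most 2 mismatches (11% and 20.8%). The Sox word CCTTTGT was in 7.09% and 4.79%, and the TFAP2 word GCCNNNGGC in 7.09% and 11%. In increased peaks TCAAGGTCA, a word for ESRRB and NR5A2 allowed 1 mismatch, was in 26.6%, beside 15.8% of all peaks and 11% of decreased peaks. GC content differs between these sets and its part in the shares was not tested, except for the OCT-SOX word above.

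**Figure D3:**
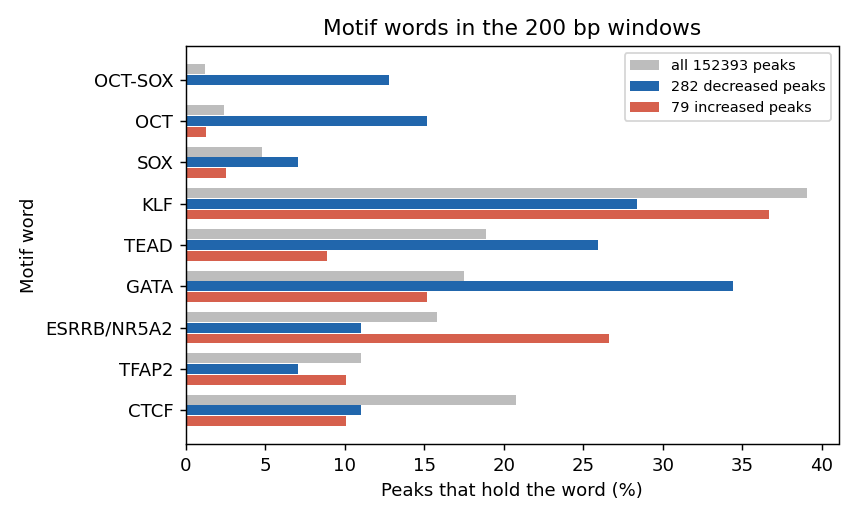
Share of peaks (x, %) whose 200 bp window holds each motif word, for all peaks (grey), decreased peaks (blue) and increased peaks (red). The OCT-SOX word is in 12.8% of decreased, 0 increased and 1.19% of all peaks.

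The change at OCT-SOX words was broader than the calls. Over all 1809 peaks with the word, called or not, the mean rlog was 2.05 ± 0.0238 (SD, n = 3) in Ctrl and 1.58 ± 0.33 (SD, n = 3) in KO, and the groups did not overlap. The difference was −0.47 (p = 0.1 in an exact permutation of the libraries, two-sided, which 3 libraries a group cannot go below), and −0.65 without KO replicate 1. Of these peaks 80.0% had a negative difference, beside 51.2% of all peaks. Over the 3639 peaks with the octamer the mean was 2.31 ± 0.0543 (SD, n = 3) in Ctrl and 1.95 ± 0.205 (SD, n = 3) in KO. Over the 150584 peaks without the OCT-SOX word it was 2.58 ± 0.058 and 2.57 ± 0.0674 (SD, n = 3 each), a difference of −0.01. The difference at word peaks was close to 0 where Ctrl was weakest. The median difference was −0.05 at word peaks with a Ctrl rlog under 1, −0.45 between 1 and 2, −0.76 between 2 and 3, −0.70 between 3 and 4, and −0.64 at 4 or more. Of the 196 word peaks at 4 or more, 26 were called decreased (13.3%), beside 0.655% of the other peaks at that level.

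Part of the decreased peaks shared a sequence. When windows with at least 10 stretches of 20 bases in common were joined, the 282 windows gave 3 families of 12, 6 and 5 peaks over many chromosomes, nearly all in sequence that the reference masks as repeats. These families were found after the values were seen, so they are described without a test. In the first family 11 of the 12 windows hold the OCT-SOX word with at most 3 mismatches. The stretch around the word is shown for 6 members, the closest of the 10 compared, with the word in capitals, to show what the copies share:
4930548H24Rik, chr5:31489179-31489244, plus strand: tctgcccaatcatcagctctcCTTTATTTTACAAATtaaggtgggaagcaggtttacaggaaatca
Fhl2, chr1:43284711-43284785, plus strand: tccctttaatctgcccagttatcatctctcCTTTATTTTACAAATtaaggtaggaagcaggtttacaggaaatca
Epb41l5, chr1:119581541-119581615, minus strand: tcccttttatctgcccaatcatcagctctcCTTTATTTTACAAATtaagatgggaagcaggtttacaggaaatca
Gpnmb, chr6:49022491-49022561, plus strand: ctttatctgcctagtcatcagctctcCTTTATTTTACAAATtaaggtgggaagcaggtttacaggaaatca
Zfp42, chr8:43353836-43353910, minus strand: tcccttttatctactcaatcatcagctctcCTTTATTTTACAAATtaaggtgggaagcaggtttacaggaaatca
Fhit, chr14:10713447-10713500, minus strand: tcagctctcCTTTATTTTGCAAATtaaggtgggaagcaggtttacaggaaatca

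Over the bases in common with the copy near *4930548H24Rik*, those near *Fhl2*, *Epb41l5*, *Gpnmb*, *Zfp42* and *Fhit* were identical at 93.9%, 98.5%, 97.0%, 97.0% and 98.1%. The 4 other copies compared matched less well without gaps, at 87.5% near *Vstm5*, 80.3% near *Ccdc81*, 75.8% near *Epha7* and 47.0% near *Msh6*. The copy near *4930548H24Rik* had an rlog of 4.49, 4.90 and 4.86 in Ctrl and 3.36, 1.81 and 1.07 in KO (difference −2.67 ± 0.44, SE, adjusted p = 0.00019). The copy near *Fhl2* had 4.63, 4.5 and 5.13 in Ctrl and 3.45, 2.15 and 0.96 in KO. The copy in the neighbourhood of *Zfp42*, which encodes the pluripotency marker Rex1, lies at −46863 bp from its start and had 4.09, 2.86 and 3.40 in Ctrl and 2.19, 1.20 and 0.59 in KO. At these 3 copies the groups did not overlap.

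The table holds 307 peaks of this first family, of which 295 were not called. Over those 295 the mean rlog was 1.63, 1.60 and 1.72 in Ctrl and 1.44, 0.975 and 0.665 in KO, so the groups did not overlap and KO replicate 1 was again the nearest to Ctrl. The median difference of the 295 was −0.59, and 262 of them (88.8%) were negative, beside 51.2% of all peaks. In early ICM 185 of the 307 (60.3%) were called decreased in *Pou5f1*-KO, beside 5.43% of all peaks. The median difference of the 307 in *Sox2*-KO was −0.98 in early and −1.39 in late ICM.

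The second family (576 peaks in the table, 6 decreased) has the octamer in 4 of its 6 decreased members, and these are shown to mark the octamer in its common surroundings:
Klf12, chr14:100350887-100350954, minus strand: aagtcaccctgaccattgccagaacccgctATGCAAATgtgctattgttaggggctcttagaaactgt
Arntl, chr7:113263204-113263271, minus strand: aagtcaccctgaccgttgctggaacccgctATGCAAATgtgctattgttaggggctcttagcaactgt
Hint3, chr10:30628670-30628737, minus strand: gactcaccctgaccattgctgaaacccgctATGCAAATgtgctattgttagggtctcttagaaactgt
Rp2, chrX:20357857-20357924, plus strand: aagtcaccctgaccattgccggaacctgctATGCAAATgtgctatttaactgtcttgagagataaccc

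Over its 570 peaks not called decreased the mean rlog was 2.35, 2.30 and 2.42 in Ctrl and 2.14, 1.88 and 1.71 in KO, again without overlap, and 83.3% of them had a negative difference (beside 51.2%). The third family, with decreased members near *Meox2*, *Nova1*, *Cluap1*, *Gbp4* and *Gripap1*, held the OCT-SOX word with at most 3 mismatches in 1 of its 5 decreased members (*Gbp4*) and the octamer in none. Over its 234 other peaks the mean was 3.14, 2.96 and 3.02 in Ctrl and 3.04, 2.35 and 2.13 in KO, so KO replicate 1 fell among the Ctrl libraries. In late ICM the median difference of these 234 was 0.12, against −1.85 in the first and −0.48 in the second family. Masked sequence was otherwise not frequent among decreased peaks. More than 50% of the window was masked in 16.3% of the decreased, 55.7% of the increased and 23.0% of all peaks.

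**Figure D4:**
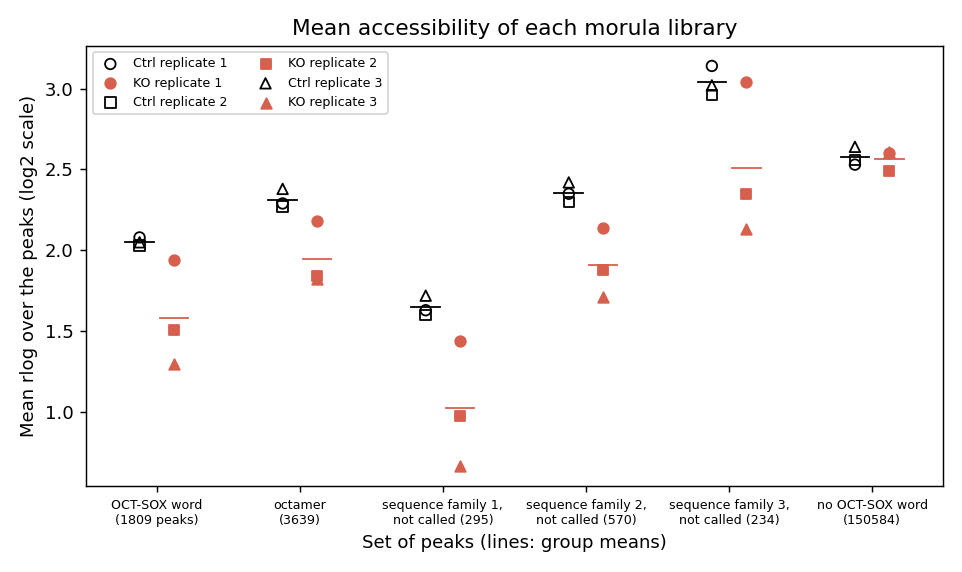
Mean rlog (y, log2 scale) of each morula library over the peaks with the OCT-SOX word, those with the octamer, the peaks of the 3 sequence families that were not called decreased, and all peaks without the OCT-SOX word. Open symbols are Ctrl, filled symbols KO and lines group means; all 3 KO libraries lie below Ctrl for the words and the first 2 families, while KO replicate 1 lies among Ctrl for the third family and the groups overlap for peaks without the word.

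The peaks near genes of known embryonic pathways were called about as often as peaks in general. Around the 147 genes of 10 lists, from 10 kb before to 10 kb after each gene, 5 of 2047 peaks were decreased (0.244%, beside 0.185% of all peaks) and 0 increased (beside 0.0518%), and their median difference was −0.04. The list of pluripotency factors and markers (28 genes, 344 peaks) had 2 decreased peaks (0.581%), at *Esrrb* and *Gdf3*, and a median difference of 0.02. The trophectoderm list (18 genes, 445 peaks), the list of compaction and polarity (10 genes, 267 peaks) and that of DNA methylation and chromatin regulators (15 genes, 220 peaks) had 1 decreased peak each. The lists for primitive endoderm (143 peaks), the Hippo pathway (330), early cleavage and zygotic activation (90), pyruvate and glutathione metabolism (78), constitutively expressed genes (80) and somatic cells of the ovary and oviduct (58) had none. In early ICM the pluripotency list had 50 decreased peaks (14.5%, beside 5.43% of all peaks) and 4 increased peaks (1.16%, beside 2.8%).

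*Esrrb*, an orphan nuclear receptor of naive pluripotency, had a decreased peak in an intron (chr12:86470961-86471160, with the octamer shown above). Its rlog was 5.24, 4.63 and 5.05 in Ctrl and 3.86, 3.33 and 2.14 in KO, a difference of −1.86 ± 0.37 (SE, adjusted p = 0.0055). *Gdf3*, a TGF-β family ligand of pluripotent cells, had 4.49, 3.84 and 3.97 in Ctrl and 3.65, 1.81 and 1.06 in KO in its intron (chr6:122608518-122608717, adjusted p = 0.019). Both peaks were clear of overlap and stayed decreased later, by −1.76 (adjusted p = 0.0038) at *Esrrb* and −2.32 (adjusted p = 0.00047) at *Gdf3* in late morula.

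*Tet2*, which oxidises methylated cytosine, had 5.20, 4.13 and 4.86 in Ctrl and 3.26, 2.73 and 3.10 in KO at a non-coding exon (chr3:133513567-133513766, difference −1.70 ± 0.42, SE, adjusted p = 0.045). The 3 KO libraries were alike there. *Pard3*, a scaffold of the apical polarity complex, had 5.31, 5.17 and 5.27 in Ctrl and 4.15, 2.64 and 2.46 in KO in an intron (chr8:127125988-127126187, difference −2.16 ± 0.33, SE, adjusted p = 5.8e-05). *Fgfr2*, an FGF receptor of the trophectoderm lineage, had 3.71, 3.59 and 3.72 in Ctrl and 2.44, 1.61 and 0.93 in KO at an intronic peak (chr7:130574195-130574394, adjusted p = 0.023) that lies nearer to the start of *Nsmce4a*. At none of the 3 did the groups overlap. Of the 8 decreased peaks named for a listed gene or a start site, only the one in *Pard3* was still called without KO replicate 3 (adjusted p = 0.018), and only that one with the 6 morula libraries alone (adjusted p = 0.03).

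In the lists without a call, the peak with the smallest p was near *Col4a1* in primitive endoderm (difference 1.88, adjusted p = 0.11), in *Tead1* in the Hippo pathway (−1.22, adjusted p = 0.17), in *Obox3* in early cleavage (1.39, adjusted p = 0.15), near *Ldha* in metabolism (−1.67, adjusted p = 0.11), near *Ywhaz* among constitutive genes (−1.17, adjusted p = 0.11) and near *Pax8* among somatic genes (1.68, adjusted p = 0.15). None of these differences passed the threshold, although some are as large as called ones.

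The pluripotency enhancers that the study lists by position were not called in morula. Of the 9, the *Utf1* enhancer came nearest, with an rlog of 3.09, 2.25 and 3.11 in Ctrl and 1.72, 1.55 and 0.85 in KO (difference −1.44 ± 0.44, SE, adjusted p = 0.16) and no overlap. *Utf1* encodes a chromatin factor of pluripotent cells. At the *Pecam1* peak the difference was −1.03 (adjusted p = 0.55), with KO libraries at 3.65, 1.5 and 0.81 on both sides of Ctrl at 3.07, 3.03 and 2.95. The *Klf4* peak had 2.82, 4.54 and 3.88 in Ctrl and 3.96, 3.07 and 2.34 in KO, and the *Klf2* peak 3.46, 2.07 and 2.60 in Ctrl and 3.01, 3.19 and 2.45 in KO. The groups overlapped at both. With a library left out the difference ran from −1.09 to −0.22 at *Klf4* and from −0.14 (without Ctrl replicate 2) to 0.55 at *Klf2*, so no direction is given.

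Some of these enhancers were open in both groups. *Pou5f1* CR4 had 6.45, 6.56 and 6.48 in Ctrl and 6.37, 5.93 and 6.49 in KO, a difference of −0.24 ± 0.24 (SE, adjusted p = 0.90). The distal *Nanog* enhancer had 6.48, 6.17 and 6.47 in Ctrl and 5.83, 6.16 and 6.47 in KO, and the proximal one 4.76, 4.90 and 4.92 in Ctrl and 4.99, 4.62 and 4.35 in KO. The *Sox2* SRR2 enhancer was weak in both groups, at 1.08, 0.93 and 0.58 in Ctrl and 1.35, 1.06 and 0.49 in KO. The *Prdm14* peak had 1.89, 1.18 and 2.37 in Ctrl and 3.8, 1.86 and 2.57 in KO. A p over the threshold does not show that these sites were equal between the groups.

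Most decreased peaks stayed low in the later embryos, which are other libraries than those that made the calls, although one rlog transformation covered them all. In late morula 277 of the 282 (98.2%) had a negative difference, beside 50.9% of all peaks, with a median of −1.5, and 124 were called decreased (44%, beside 0.539% of all peaks). In early ICM 263 were negative (93.3%), with a median of −1.56, and 175 were called decreased (62.1%, beside 5.43% of all peaks). In late ICM 234 were negative (83.0%), the median was −1.32, and 162 were called decreased (57.4%, beside 10.1% of all peaks) and 4 increased (beside 8.19%). In the 962 peaks called without KO replicate 1 the share negative in late morula was 96.7%.

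The mean rlog over the 282 peaks shows the same in levels. In morula it was 4.19 ± 0.0121 (SD, n = 3) in Ctrl, and in KO it was 2.20 ± 0.784 (SD, n = 3), with a range of 1.60 to 3.09. In late morula it was 3.65 ± 0.205 in Ctrl and 2.19 ± 0.0411 in KO (SD, n = 3 each), with the KO libraries between 2.16 and 2.24. In early ICM it was 4.10 ± 0.127 and 2.62 ± 0.131, and in late ICM 3.98 ± 0.114 and 2.60 ± 0.0705 (SD, n = 4 each). Over these peaks the wide spread among the KO libraries was thus found in morula and not in the later groups. The peaks were chosen from the morula libraries, which can widen the spread there and not at later stages.

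Increased peaks persisted less. In late morula 62 of the 79 (78.5%) had a positive difference, beside 49.1% of all peaks. The median was 0.47, and 1 was called increased (1.27%, beside 0.108% of all peaks). In early ICM 44 were positive (55.7%, beside 48.5%), with a median of 0.05. There 2 were called increased (2.53%, beside 2.8% of all peaks) and 1 decreased (beside 5.43%). In late ICM 46 were positive (58.2%, beside 47.9%), with a median of 0.07, and 4 were called increased (5.06%, beside 8.19% of all peaks). The share called in the ICM was thus near or below that of all peaks.

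**Figure D5:**
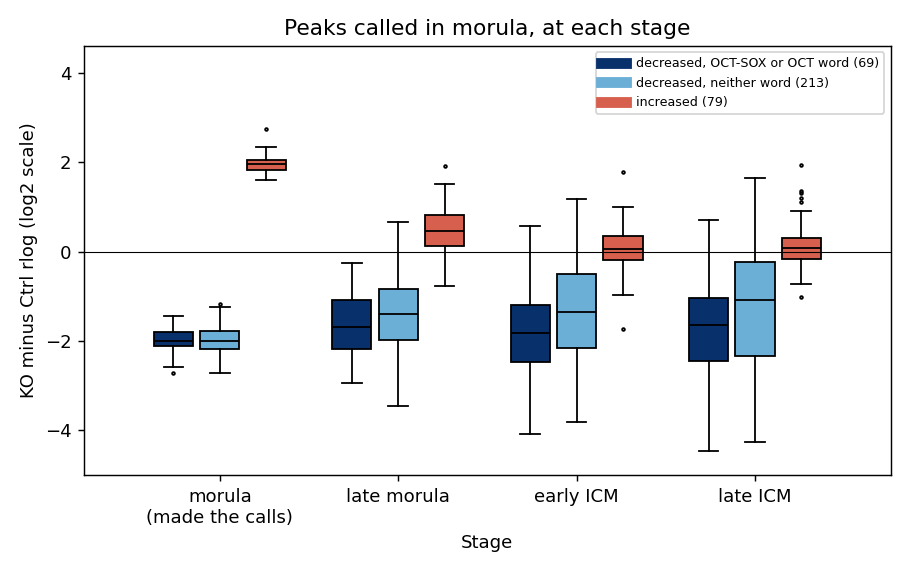
KO minus Ctrl rlog (y, log2 scale) at each stage (x) for the peaks called in morula, as boxes (median and quartiles; whiskers to 1.5 times the interquartile range). Decreased peaks with an OCT-SOX or OCT word (69, dark blue) and without (213, light blue) stay below 0 in the median, and increased peaks (79, red) return to about 0 in ICM.

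Decreased peaks with an OCT-SOX or OCT word and those without were alike in morula, with medians of −1.99 and −2.00, which the calls themselves bound. The medians of late morula were −1.68 with and −1.40 without a word, those of early ICM −1.82 and −1.35, and those of late ICM −1.7 and −1.08. In early ICM 84.1% of the 69 peaks with a word and 54.9% of the 213 without were called decreased. At 94 peaks (33.3%) the decrease was called at all 4 stages, with a median of −2.45 in late ICM, and 29.8% of these held one of the words. At 82 peaks (29.1%) it was called in morula and at no later stage, and 4.88% of these held a word, beside 3.26% of all peaks. A missed call at a later stage is not a tested change of the effect. Of those 82, 77 had a negative difference in late morula, with a median of −0.80. Examples are the intronic peak of *Pard3*, which differed by −2.16 in morula and −0.98 (adjusted p = 0.20) in late morula, then by −0.45 and 0.15 in the ICMs, and the *Sh2d6* peak, with −2.71, −0.68, −1.01 and −0.39 in the order of the stages.

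Of the 12 largest decreases 9 were called again in late morula, and 8 of those 9 in early ICM. The number called was 9 in early and 7 in late ICM. The *Ostf1* peak differed by −2.94 in late morula and by −2.68 and −2.46 in the early and late ICM. The *Asph* peak differed by −2.74, −3.59 and −3.20 at these stages. The *Dtd1* peak differed by −2.11, −3.62 and −3.15. The *Cfap69* peak differed by −2.87 in late morula (adjusted p = 0.00064) and then by −1.08 (adjusted p = 0.15) and −0.64 (adjusted p = 0.38) in ICM.

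The same peaks were followed in the ICM of embryos without Sox2, the partner of Oct4 on the OCT-SOX element. In *Sox2*-KO early ICM 49 of the 282 were called decreased (17.4%, beside 1.91% of all peaks), with a median difference of −0.44. In *Sox2*-KO late ICM 68 were called decreased (24.1%, beside 4.88% of all peaks) and 13 increased (beside 2.71% of all peaks), with a median of −0.36. Tested directly, the *Pou5f1*-KO effect was more negative than the *Sox2*-KO effect at 36 of the 282 in early ICM (beside 0.372% of all peaks) and at 55 in late ICM (beside 0.554%; limma). At the *Asph* peak the *Sox2*-KO difference was −0.10 in early and 0.16 in late ICM, and the test of the difference between the knockouts passed in both (adjusted p = 6.9e-06 and 1.9e-05). At the *Esrrb* peak it passed in late ICM (adjusted p = 0.0071), and at the *Gdf3* peak too (adjusted p = 0.0023). The *Osbpl6* and *Dtd1* peaks were decreased in both knockouts, with differences of −3.21 and −3.34 in *Sox2*-KO late ICM, and the difference between the knockouts there did not pass (adjusted p = 0.81 and 0.94).

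The size of the *Pou5f1*-KO effect was also compared between stages, over all peaks. Between morula and late morula no peak passed (limma, smallest adjusted p = 0.697), with 3032 more negative and 2831 more positive in late morula at an unadjusted p under 0.05. In early ICM the effect was more negative than in morula at 683 peaks (0.448%) and more positive at 315 (0.207%). In late ICM it was more negative at 3830 (2.51%) and more positive at 3032 (1.99%). Of the 282 peaks decreased in morula, 0 were more negative and 11 more positive in early ICM, and 8 and 57 in late ICM. Their choice in morula favours such a shift toward 0. Morulae and ICMs differ also in the inhibitor, the isolation and the number of libraries, which cannot be told apart from the stage here.

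The 4 clearest peaks for early ICM were not called in morula and were chosen for this contrast. A peak in an intron of *Tasp1*, which encodes a threonine protease, had 2.40, 3.03 and 3.11 in Ctrl and 2.61, 3.27 and 2.96 in KO morula. In early ICM its mean was 6.13 ± 0.39 in Ctrl and 2.37 ± 0.30 in KO (SD, n = 4 each), so KO stayed near its morula level and Ctrl was more open. Peaks nearest to *Cntnap5b* (chr1:100878159-100878358) and *Sirpa* differed by 0.18 and 0.00 in morula and were lower in KO than in Ctrl by 3.96 and 3.69 in early ICM. There the *Cntnap5b* peak had a mean of 5.46 in Ctrl and 1.51 in KO, and the *Sirpa* peak 5.08 and 1.38, beside morula means between 1.41 and 1.73 at both. A peak far upstream of *Pcdh10* had 2.69, 1.22 and 2.18 in Ctrl and 3.45, 4.0 and 3.78 in KO morula (difference 1.71, adjusted p = 0.15), and in early ICM a mean of 4.72 ± 0.59 in Ctrl and 1.57 ± 0.76 in KO (SD, n = 4 each). At *Hnrnpa3* the order was the reverse, with −1.21 (adjusted p = 0.28) in morula and higher values in KO ICM, by 1.63 (early) and 2.78 (late).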

How the data were processed

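ATAC-seq libraries of pooled embryos were processed by the authors with SeqPurge, Bowtie2 (mm10), Picard and MACS2. Duplicates, poorly mapped reads, chromosome Y, the mitochondrial genome, blacklisted regions and satellite repeats had been removed, and alignments shifted for the Tn5 offset. Since uniquely mapped reads were used, repeat copies that cannot be told apart by mapping are under-represented. Insertions per merged 200 bp peak were counted with BEDTools. The deposited values are log2 values from the rlog function of DESeq2, made by the authors over all 44 libraries; group mean columns were not used.

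Differences were tested here with limma (version 3.58.1, R 4.3.3) on 12 group means over 44 libraries, with trended variance and 32 residual degrees of freedom. Adjustment was Benjamini-Hochberg over 152393 peaks, with a threshold of 0.05. The fit was tested on simulated data in which every group had the same spread at a peak. There 0% of peaks changed by 1 log2 unit in KO morula were called, 52% of those changed by 2 and 96% of those changed by 3 (50 peaks each). Smaller changes can thus be missed. The study tested counts, which were not used here. Groups came from the labels. No source says that the pools were separate matings, so p-values measure the spread between libraries. That spread is estimated per peak over all 12 groups, most of them of later stages. An SE or p thus does not fully reflect the wider spread among the KO morula libraries at decreased peaks. Genes, features and start sites came from GENCODE vM21, sequences from RefSeq GRCm38.p6, without coordinate conversion.

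Named were the 12 largest decreases and 8 largest increases without overlap of the groups (1 of the increases is not reported here by name), peaks of *Pou5f1* and *Pgk1*, 9 listed enhancers, called peaks within 10 kb of listed genes or, failing these, the smallest p, called peaks within 100 bp of a start site, and 4 peaks per ICM stage with the clearest change of effect. *Spag9*, *Zfp42* and other members of the sequence families, and examples of the loci, were chosen after their values were seen. The comparison and gene lists were chosen with earlier results of these data known. Alternatives were the 6 libraries alone, a filter on low values, quantile normalization, a size limit, a replicate block, no variance trend, library weights, omission of chromosome 17, each library left out, and other windows and mismatch limits.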

Additional observations from a re-analysis of the deposited data

Results flagged for a closer look

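The effect of *Pou5f1*-KO differed between morula and ICM by a limma contrast of the 2 effects at 683 peaks in the negative and 315 in the positive direction for early ICM, and at 3830 and 3032 for late ICM. These differences are given as values, and the inhibitor and isolation of the ICMs cannot be told apart from the stage.

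Among the peaks with the clearest change of effect, the ICM effect minus the morula effect was −3.86 (early) and −2.98 (late) at *Tasp1*, −4.13 and −3.42 at the *Cntnap5b* peak on chr1:100878159-100878358, −4.86 and −4.72 at *Pcdh10*, −3.69 and −3.81 at *Sirpa*, −2.73 and −3.90 at the peak nearest *B930094E09Rik*, −3.52 and −4.19 at the peak nearest *Olfr761*, and 2.84 and 3.99 at *Hnrnpa3*. These peaks were chosen for this difference.

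Among the listed enhancers the effect was more negative in late ICM than in morula by −2.34 at *Prdm14*, −2.73 at *Pecam1*, −3.21 at *Sox2* SRR2 and −2.04 at *Klf4*, and in early ICM by −2.28 at *Utf1*. The *Pax8* peak of the somatic list had −2.44 in late ICM.

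Peaks called in morula are drawn toward 0 at other stages by their choice, so the following differences are not independent of the calls. Of the largest increases, *Trim28* had −2.91 in early and −2.62 in late ICM, *Cyp4f40* −2.29 and −2.16, and *Prkcq* −2.71 and −2.41. In late ICM the *Cntnap5b* peak on chr1:99273587-99273786 had −2.12 and *Prkar2b* −2.25, and in early ICM *Mlf2* had −3.14. Of the decreases, *Pard3* had 1.71 in early and 2.31 in late ICM, and in late ICM *Sh2d6* had 2.31 and *Gadd45a* 2.26.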

How the results depend on the processing

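With 282 decreased, 79 increased and 78.1% decreased as the reference, the 6 morula libraries alone gave 22, 15 and 59.5%, quantile normalization 497, 200 and 71.3%, and no variance trend 124 and 28. Peaks at or above the median rlog gave 12 increased and 95.5% decreased, and library weights 48 increased and 84.9%. With each library left out in turn the ranges were 12 to 962 decreased, 7 to 129 increased and 54.7% to 88.2%. Of the 20 peaks that make up the 12 largest decreases and 8 largest increases, 10 passed with the 6 libraries alone and 5 to 19 with a library left out. The share of decreased peaks with the OCT-SOX word was 2.84% with 1 mismatch and 40.8% with 3, and 5.77% to 15.6% with a library left out. Of decreased peaks 96.7% to 100% then remained negative in late morula, and the mean difference at OCT-SOX words was −0.65 to −0.32. Within 1 kb of a start site lay 7.80% of decreased peaks (19.5% of all), and within 50 kb of listed genes 9 decreased and 1 increased of 3754 peaks (0.185% and 0.0518% of all). No named called peak changed direction under any alternative run on it.

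The replicate numbers were not treated as pairs in the main fit. Deviations of same-numbered KO and Ctrl libraries from their group means correlated at 0.111, 0.0479 and 0.153, and each library correlated best with its own number. The labels do not say whether such libraries were paired. With the replicate block 771 peaks were decreased and 245 increased, all 282 among the former, and the *Pgk1* promoter passed (adjusted p = 0.047). The effect was then more negative at 1, 1564 and 5938 peaks in late morula, early and late ICM than in morula, and more positive at 927 and 5268 in early and late ICM.

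Small groups, unknown depth, maternal knockout in both groups and one intermediate KO library limit what the morula comparison can show. The causes of these shifts were not tested.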
